A study of Mus musculus with 16 samples.

Results

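The genes described here are 40 genes of the S phase of the cell cycle, the period in which a cell copies its DNA, and their messenger RNA was followed from polychromatic erythroblasts (Poly-E) to the more mature orthochromatic erythroblasts (Ortho-E) of mouse bone marrow. They were chosen by name, as the rows whose gene name is on a list of S phase genes, and all 40 were found among the 46078 genes counted. RNA was sequenced from Ter119+ cells that had been sorted from steady-state bone marrow by their CD44 level, with dead cells gated out by propidium iodide. The 4 groups were Ypel4+/+ Poly-E, Ypel4+/+ Ortho-E, Ypel4-/- Poly-E and Ypel4-/- Ortho-E, each with 4 libraries. Mice of both genotypes were of 1 strain, given as C57BL/6N-A<tm1Brd> with Ypel4<tm1a(EUCOMM)Wtsi>/WtsiIeg. The Ypel4-/- mice were homozygous for a trap allele that interrupts Ypel4 from the germline and so is carried in every tissue of the animal, and no treatment was given. The age of the mice was not given in the sources used here.

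In S phase, each origin of replication that was licensed in G1 by loading of the MCM helicase is fired once, and polymerases held on the DNA by the PCNA clamp copy both strands while newly made histones are deposited behind the fork. Many genes for this machinery are switched on together by E2F transcription factors at the border of G1 and S. Erythroblasts divide a few times while they mature and leave the cell cycle before the nucleus is expelled, Poly-E still being a dividing stage and Ortho-E the last nucleated one.

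The E2F motif of their promoters is shown first, since many of these genes are known E2F targets and the motif is read from sequence alone. RefSeq promoter windows of the GRCm38.p6 build, each 300 bases long and reaching from 250 bases before a gene's start to 50 after it, were found for 30 of the 40 members (33 windows). E2F words were searched as TTTCCCGC, TTTGGCGC, TTTCGCGC or TTTGCCGC on either strand, and neighbouring words may overlap, as in Mcm5 and Mcm6. At least 1 word lay in the windows of 12 members, or 36.4% of the members' windows, whereas 2.3% of all 32851 windows held one. In 9 of these members a word lay wholly upstream of the start, and those stretches are printed 5′ to 3′ on the gene's strand with the E2F letters in capitals and 20 bases on either side, or up to the start where it was nearer.
Mcm6, chr1:128359725-128359835 (minus strand): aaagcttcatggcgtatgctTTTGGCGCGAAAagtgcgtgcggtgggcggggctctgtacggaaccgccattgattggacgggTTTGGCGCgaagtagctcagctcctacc
Mcm5, chr8:75109336-75109387 (plus strand): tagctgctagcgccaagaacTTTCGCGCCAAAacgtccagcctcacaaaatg
Cdc6, chr11:98907993-98908040 (plus strand): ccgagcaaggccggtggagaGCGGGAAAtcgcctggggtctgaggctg
Dtl, chr1:191575545-191575572 (minus strand): atcagaaagcgtgacgtcagTTTGGCGC
Pola1, chrX:93632266-93632313 (minus strand): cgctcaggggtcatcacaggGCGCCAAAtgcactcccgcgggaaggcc
Hells, chr19:38930908-38930955 (plus strand): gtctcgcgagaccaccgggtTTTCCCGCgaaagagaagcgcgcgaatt
Cdca7, chr2:72476128-72476175 (plus strand): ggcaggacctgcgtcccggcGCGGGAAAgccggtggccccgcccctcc
Casp8ap2, chr4:32615274-32615321 (plus strand): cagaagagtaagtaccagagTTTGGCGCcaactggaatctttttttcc
Uhrf1, chr17:56304108-56304155 (plus strand): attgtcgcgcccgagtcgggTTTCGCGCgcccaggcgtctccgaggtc
Clspn, Pold3 and Ubr7 had a word only at or after the start. Of the upstream words the nearest to its start began 8 bases before it, in Dtl, and the farthest 185 bases before it, in Uhrf1. The CCAAT box was in 66.7% of the members' windows and 37.4% of all, and the GC box GGGCGG in 63.6% and 35.7%. TTTGAA, the core of the element found in genes of G2 and mitosis, was in 18.2% of the members' windows and 17.9% of all. These are counts of letters and not of bound sites.

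Library depth ranged from 2670173 to 12451234 counted reads, and no 2 libraries held identical counts. Levels are given as CPM, reads of a gene relative to all counted reads of its library, after TMM scaling, a method that sets libraries level on the bulk of their genes, with scaling factors of 1.45 to 1.64 in Poly-E and 0.606 to 0.726 in Ortho-E. The sorted cells carried erythroid markers. The 11 of 12 erythroid markers that were found summed to between 58470 and 70863 CPM in Poly-E and between 234467 and 322320 CPM in Ortho-E. Of these 11, 8 were called higher in Ortho-E in each genotype, while 2 were called lower in Ypel4+/+ and 1 in Ypel4-/-. Their log2 fold changes in Ypel4+/+ and Ypel4-/- ran from -0.40 and -0.43 for Klf1 to 2.64 and 2.87 for Hba-a2. Markers of other cells summed to far less, but the sums of several lists were higher in Ortho-E. Over all genes tested, 26.4% were called higher in Ortho-E in Ypel4+/+ and 29.5% in Ypel4-/-, and 32.1% and 31.5% lower. The 6 B cell markers summed to 25.4 to 37.4 CPM in Ypel4+/+ Poly-E and 37.1 to 51.3 CPM in Ypel4+/+ Ortho-E, and to 32.6 to 51.4 CPM and 58.1 to 77.8 CPM in Ypel4-/-, with 2 of 6 tested called higher in Ortho-E in Ypel4+/+ and 5 of 5 in Ypel4-/-. The 10 neutrophil and monocyte markers summed to 2.26 to 3.23 CPM and 5.49 to 20.5 CPM in Ypel4+/+ Poly-E and Ortho-E and to 1.95 to 5.26 CPM and 4.08 to 16.8 CPM in Ypel4-/-, with 2 of 5 and 5 of 6 called higher. The 7 macrophage markers summed to at most 4.73 CPM in Poly-E and 13.1 CPM in Ortho-E (1 of 6 and 3 of 7 called higher), and the 5 T cell markers to at most 1.42 CPM in any library. The 5 megakaryocyte and platelet markers summed to between 26.7 and 35.4 CPM in Poly-E and between 89.99 and 113 CPM in Ortho-E. Only Itga2b was called higher, at log2 fold changes of 2.24 in Ypel4+/+ (1 of 2 tested) and 2.52 in Ypel4-/- (1 of 3). The lowest were Gp9 at 0.06 in Ypel4+/+ and Ppbp at -5.54 in Ypel4-/-, neither called. The 5 early progenitor markers summed to 5.83 to 7.36 CPM and 1.71 to 4.66 CPM in Ypel4+/+ Poly-E and Ortho-E and to 6.35 to 9.29 CPM and 4.27 to 8.10 CPM in Ypel4-/-, with 1 of 2 tested called lower in Ypel4+/+ and 0 of 2 in Ypel4-/- by edgeR (unadjusted p under 0.05 for 1 and 0). The part of these cells in the results was not tested. Ypel4 itself was at 490 to 716 CPM in Ypel4+/+ Poly-E and at 9.90 to 23.6 CPM in Ypel4-/- Poly-E, and at 4430 to 5441 CPM against 175 to 224 CPM in Ortho-E. In bulk RNA, fewer cells in S phase and less of these transcripts in each cell cannot be told apart. Nothing in the labels states that each library came from its own mouse, so the p-values below measure the spread between these samples.

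To follow DNA replication through terminal erythroid differentiation, Ortho-E were compared with Poly-E within each genotype. Every member fell in both genotypes. In Ypel4+/+ mice 40 of 40 members were called lower in Ortho-E by edgeR's quasi-likelihood test (Benjamini-Hochberg adjusted p at or under 0.05), as were 32.1% of the 11747 genes tested. The median log2 fold change of the members was -2.07, beside -0.19 over all genes tested, and ranged from -2.85 for Gins2 to -1.37 for Gmnn, which is a fall of between 2.58 and 7.20-fold with a median of 4.19-fold. In Ypel4-/- mice again 40 of 40 members were called lower, where 31.5% of 11973 genes were, with a median of -1.96 beside -0.09 over all genes and a range from -2.37 for Gins2 to -1.15 for Gmnn. All 4 Ortho-E libraries lay below all 4 Poly-E libraries for 40 of 40 members in each genotype, as they did for 27.4% of 13318 genes in Ypel4+/+ and 29.5% in Ypel4-/-. The members also lay close together, with 37 of 40 within 0.5 log2 units of their median in Ypel4+/+ and 39 of 40 in Ypel4-/-.

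**Figure D1:**
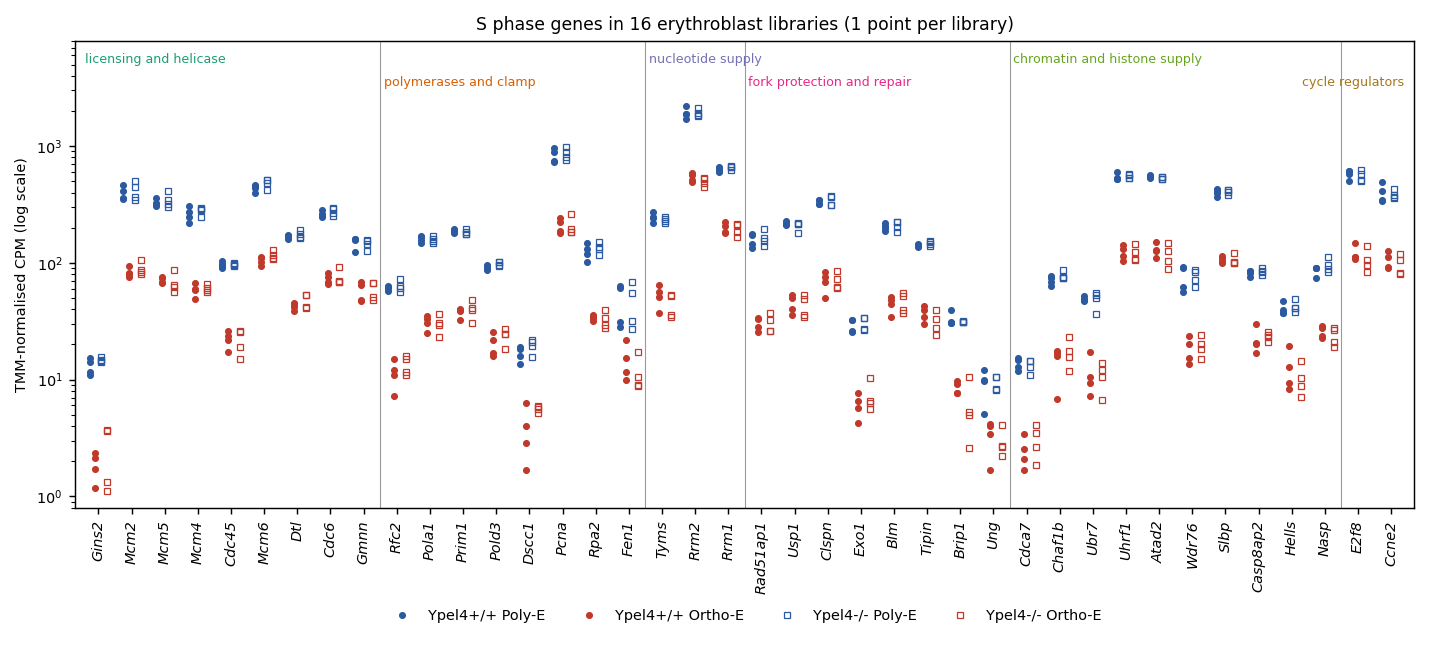
TMM-normalised CPM on a log axis for each of the 40 S phase genes, grouped by role and ordered within a role by the Ypel4+/+ fold change, with 1 point per library (filled circles Ypel4+/+, open squares Ypel4-/-, blue Poly-E, red Ortho-E). For all 40 genes the red points lie below the blue points of the same genotype, and filled and open points of a colour overlap.

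Summed over the 40 members, the level was 10438 ± 367 CPM in Ypel4+/+ Poly-E (SD, n = 4) and 2600.1 ± 221 CPM in Ypel4+/+ Ortho-E, and 10605 ± 246 CPM in Ypel4-/- Poly-E and 2526 ± 312 CPM in Ypel4-/- Ortho-E. Set beside the Poly-E library of the same replicate number, the Ortho-E sum was 22.7%, 24.9%, 23.7% and 28.4% in Ypel4+/+ and 25.1%, 20.7%, 21.6% and 28.0% in Ypel4-/-. The highest share was that of replicate 4 in both genotypes, and in each of the 8 such pairs all 40 members were lower in Ortho-E. As a share of all counted reads, with no scaling, the members held 1.58% ± 0.0751 and 0.166% ± 0.0165 in Ypel4+/+ Poly-E and Ortho-E and 1.67% ± 0.0448 and 0.167% ± 0.0219 in Ypel4-/-. The size of the fall depends on the scaling. With library totals in place of TMM the median log2 fold change of the members became -3.35 in Ypel4+/+ and -3.38 in Ypel4-/-, while that of all genes moved to -1.45 and -1.47, and the share of lower among all calls rose from 54.9% to 85.3% in the former and from 51.6% to 84.5% in the latter. Relative to the median of all genes the members were lower by nearly the same amount either way, with a difference of -1.87 against -1.90 in Ypel4+/+ and -1.87 against -1.90 in Ypel4-/-. A change of scaling multiplies all genes of a library by 1 factor, so this near-equality follows from the arithmetic and is no check of the fall.

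**Figure D2:**
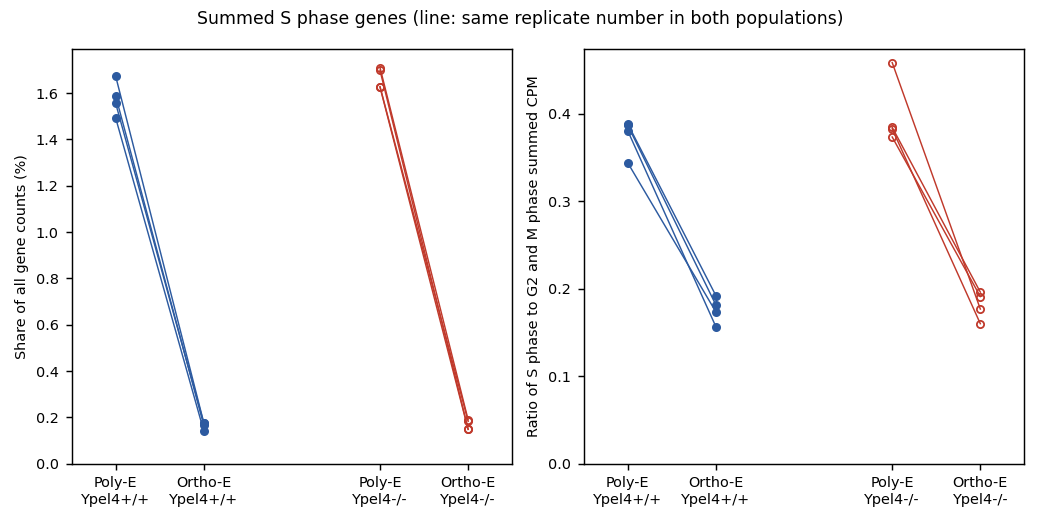
Left, share of all gene counts (%) held by the 40 S phase genes; right, ratio of their summed CPM to that of 52 G2 and M phase genes. Each line joins the Poly-E and Ortho-E libraries of 1 replicate number, and every line falls from Poly-E to Ortho-E, the mean ratio going from 0.375 to 0.176 in Ypel4+/+, and in Ypel4-/- from 0.400 to 0.181.

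Of the members that license origins and unwind DNA, Gins2 (ENSMUSG00000031821, chr8:120578633-120589304 in GRCm38) encodes a subunit of the GINS complex, which joins the MCM ring to form the active helicase. Gins2 was at 11.5, 11.03, 15.3 and 14.1 CPM in the 4 Ypel4+/+ Poly-E libraries and at 2.11, 1.71, 2.33 and 1.17 CPM in Ypel4+/+ Ortho-E. In Ypel4-/- mice, Gins2 was at 14.6, 14.4, 15.5 and 14.04 CPM in Poly-E and 3.60, 1.11, 1.32 and 3.67 CPM in Ortho-E. The populations were well apart in both genotypes, and among the Ypel4-/- Ortho-E libraries replicates 1 and 4 were the high ones. Gins2 had the largest fall of the list in both genotypes, with log2 fold changes of -2.85 ± 0.29 (SE, n = 4 against 4, edgeR adjusted p = 2.39e-09) and -2.37 ± 0.27 (edgeR adjusted p = 2.00e-09), but its Ortho-E values rested on only 3 to 7 counts per library in Ypel4+/+ and 3 to 19 in Ypel4-/-. In addition, 67.3% of its exonic bases lie under Gse1 on the other strand, and since the library kit does not mark strand, reads of the overlapping genes cannot be told apart.

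Gmnn (ENSMUSG00000006715, chr13:24751845-24761923 in GRCm38) encodes geminin, which blocks renewed licensing by holding Cdt1. Gmnn was at 123, 161, 158 and 159.5 CPM in Ypel4+/+ Poly-E and 47.7, 65.1, 46.6 and 68.3 CPM in Ypel4+/+ Ortho-E. Its Ypel4-/- libraries stood at 126, 145, 155 and 157 CPM in Poly-E and 47.7, 51.2, 67.7 and 67.4 CPM in Ortho-E. The populations did not overlap, although the Ypel4+/+ Poly-E library of replicate 1 lay well below the other 3. Gmnn had the smallest fall of the 40 in both genotypes, with log2 fold changes of -1.37 ± 0.14 (edgeR adjusted p = 3.96e-09) and -1.15 ± 0.13 (edgeR adjusted p = 4.44e-09), so that it made up 1.44% of the members' counts in Ypel4+/+ Poly-E (1.20% to 1.595%) and 2.18% in Ypel4+/+ Ortho-E (1.86% to 2.41%). Its share in Ypel4-/- was 1.37% (1.21% to 1.505%) and 2.33% (1.83% to 2.87%), again with the populations apart.

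The helicase genes themselves moved as a block. Log2 fold changes in Ypel4+/+ and Ypel4-/- were -2.22 ± 0.13 and -2.06 ± 0.14 for Mcm2, -2.12 ± 0.14 and -2.03 ± 0.12 for Mcm4, -2.16 ± 0.12 and -2.19 ± 0.14 for Mcm5 and -2.03 ± 0.12 and -1.87 ± 0.12 for Mcm6, all subunits of the MCM ring. Cdc45, which completes the active helicase together with GINS, had -2.08 ± 0.14 and -1.98 ± 0.15. Cdc6, the ATPase that helps to load the ring in G1, had smaller estimates, at -1.81 ± 0.12 and -1.71 ± 0.13, as did Dtl, the substrate receptor of the ubiquitin ligase that destroys Cdt1 in S phase, at -1.95 ± 0.13 and -1.71 ± 0.13. The 9 genes of this role had a median of -2.08 in Ypel4+/+ and -1.98 in Ypel4-/-.

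Among polymerases, clamp and clamp loaders, Rfc2 (ENSMUSG00000023104, chr5:134581366-134601805 in GRCm38), a subunit of the loader that opens PCNA onto DNA, fell most in Ypel4+/+. It was at 61.4, 61.7, 63.2 and 57.8 CPM in Ypel4+/+ Poly-E and 7.18, 14.8, 10.996 and 12.1 CPM in Ypel4+/+ Ortho-E. In Ypel4-/- the Rfc2 values were 60.5, 56.1, 73.0 and 63.2 CPM in Poly-E and 14.8, 11.5, 10.9 and 16.02 CPM in Ortho-E. Poly-E libraries lay far above Ortho-E libraries in both genotypes, with replicate 1 the lowest of the Ypel4+/+ Ortho-E libraries. Its change on the log2 scale was -2.41 ± 0.17 (edgeR adjusted p = 2.39e-12) and -2.08 ± 0.16 (edgeR adjusted p = 3.22e-13). Lat2 on the other strand covers 15.1% of the exonic bases of Rfc2.

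Fen1 (ENSMUSG00000024742, chr19:10199132-10204169 in GRCm38), the nuclease that trims the flaps of lagging-strand fragments, had the smallest fall of this role in Ypel4+/+. It was at 61.1, 63.1, 30.8 and 28.3 CPM in Ypel4+/+ Poly-E and 15.2, 21.7, 9.996 and 11.7 CPM in Ypel4+/+ Ortho-E. The Ypel4-/- values of Fen1 were 55.4, 69.0, 27.0 and 31.8 CPM in Poly-E and 17.1, 8.90, 8.88 and 10.4 CPM in Ortho-E. In 3 of the 4 groups replicates 1 and 2 both lay above replicates 3 and 4 and in Ypel4-/- Ortho-E replicate 1 alone was high. Its log2 fold changes of -1.65 ± 0.37 (edgeR adjusted p = 0.00458) and -1.86 ± 0.36 (edgeR adjusted p = 0.00147) had the widest errors of the list. Of its exonic bases 84.2% lie under Tmem258 and Gm10143 on the other strand, and the part of that overlap in the split between replicates was not tested.

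Pola1, the catalytic subunit of the polymerase that starts each fragment, changed by -2.34 ± 0.14 in Ypel4+/+ and -2.23 ± 0.14 in Ypel4-/-, and Prim1, the primase subunit that lays its RNA primer, by -2.26 ± 0.13 and -2.02 ± 0.13. Pold3, an accessory subunit of the lagging-strand polymerase, changed by -2.11 ± 0.15 and -1.88 ± 0.14, and Rpa2, which coats single-stranded DNA, by -1.85 ± 0.14 and -1.87 ± 0.14. Pcna, the sliding clamp, ranked next to Rrm2 in level per kilobase of exon, and its log2 fold changes were -1.96 ± 0.13 and -1.89 ± 0.13. Its processed copy Pcna-ps2 collected 2004 counts over the 16 libraries where Pcna collected 71384, and the number of reads that fit both loci was not measured. Dscc1, part of the clamp loader used for sister chromatid cohesion, had one of the lower levels per kilobase and changed by -1.998 ± 0.26 and -1.63 ± 0.20. The 8 genes of the role had medians of -2.05 and -1.89.

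The 3 genes of nucleotide supply included the member with the highest level per kilobase of exon. Rrm2 (ENSMUSG00000020649, chr12:24708241-24714146 in GRCm38) encodes the small subunit of ribonucleotide reductase, the enzyme that makes deoxyribonucleotides. It was at 1895, 2189.8, 1888 and 1723 CPM in Ypel4+/+ Poly-E and 516, 592, 495 and 564 CPM in Ypel4+/+ Ortho-E. In Ypel4-/-, Rrm2 stood at 1936, 2126, 1833 and 1823 CPM in Poly-E and 527, 448, 485 and 536 CPM in Ortho-E. The populations were far apart, and replicate 2 was the highest Poly-E library in both genotypes. Its log2 fold changes were -1.80 ± 0.12 (edgeR adjusted p = 1.04e-12) and -1.78 ± 0.11 (edgeR adjusted p = 2.36e-15), smaller than the list's median.

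Rrm1 (ENSMUSG00000030978, chr7:102441695-102469771 in GRCm38), the large subunit of the same enzyme, fell least of the role. It was at 642, 666, 607 and 605 CPM in Ypel4+/+ Poly-E and 181, 207, 185 and 222 CPM in Ypel4+/+ Ortho-E. The values of Rrm1 in Ypel4-/- were 660.1, 671, 657 and 626 CPM in Poly-E and 213, 165, 182 and 211 CPM in Ortho-E. Within each group the 4 libraries were close, and the populations did not overlap. The log2 fold changes were -1.63 ± 0.12 (edgeR adjusted p = 4.02e-12) and -1.59 ± 0.12 (edgeR adjusted p = 1.12e-13), and it made up 6.03% of the members' counts in Ypel4+/+ Poly-E and 7.64% in Ypel4+/+ Ortho-E, where Ypel4-/- had 6.16% and 7.65%.

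Tyms (ENSMUSG00000025747, chr5:30058202-30073617 in GRCm38), thymidylate synthase, fell most of these genes. It was at 249, 274, 242 and 221 CPM in Ypel4+/+ Poly-E and 50.7, 65.1, 37.3 and 56.7 CPM in Ypel4+/+ Ortho-E. Tyms values in Ypel4-/- were 248, 237, 230.4 and 219 CPM in Poly-E and 51.7, 35.6, 34.5 and 52.9 CPM in Ortho-E. All Poly-E libraries were several-fold above all Ortho-E libraries, while the genotypes overlapped within each population. Tyms thus changed by -2.21 ± 0.15 (edgeR adjusted p = 5.68e-13) and -2.25 ± 0.14 (edgeR adjusted p = 1.23e-15).

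In the role of fork protection and repair, Rad51ap1 (ENSMUSG00000030346, chr6:126923050-126939587 in GRCm38), a cofactor of homologous recombination, fell most. It was at 173, 175, 146 and 134 CPM in Ypel4+/+ Poly-E and 25.3, 33.7, 33.0 and 28.5 CPM in Ypel4+/+ Ortho-E. For Rad51ap1 in Ypel4-/- the values were 195, 163, 153 and 139.9 CPM in Poly-E and 37.3, 26.0, 26.3 and 32.2 CPM in Ortho-E. Replicates 1 and 2 were the higher Poly-E libraries in both genotypes, and all Poly-E libraries lay above all Ortho-E libraries. The log2 fold changes were -2.35 ± 0.14 (edgeR adjusted p = 1.35e-13) and -2.25 ± 0.15 (edgeR adjusted p = 3.50e-15).

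Ung (ENSMUSG00000029591, chr5:114130386-114139323 in GRCm38), the glycosylase that removes uracil from DNA, had the lowest level per kilobase of exon in Poly-E and the smallest fall of the role. It was at 9.70, 5.03, 12.0 and 9.83 CPM in Ypel4+/+ Poly-E and 1.69, 3.43, 4.00 and 4.20 CPM in Ypel4+/+ Ortho-E. Ung in Ypel4-/- was at 8.07, 8.30, 10.5 and 10.6 CPM in Poly-E and 4.05, 2.23, 2.63 and 2.70 CPM in Ortho-E. The populations came near to each other in Ypel4+/+, where the lowest Poly-E library, replicate 2, was just above the highest Ortho-E library, replicate 4. On the log2 scale Ung changed by -1.40 ± 0.30 (edgeR adjusted p = 2.64e-04) and -1.599 ± 0.27 (edgeR adjusted p = 4.90e-06), with 4 to 18 counts per library in Ypel4+/+ Ortho-E and 6 to 14 in Ypel4-/- Ortho-E.

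The other 6 genes of this role act at stalled or damaged forks. Clspn, the adaptor that passes the signal from ATR to Chk1, changed by -2.21 ± 0.14 in Ypel4+/+ and -2.12 ± 0.13 in Ypel4-/-, and Tipin, the partner of Timeless at the fork, by -1.91 ± 0.13 and -2.06 ± 0.14. Blm, the Bloom syndrome helicase, changed by -2.17 ± 0.14 and -2.003 ± 0.14, and Exo1, an exonuclease of mismatch repair and end resection, by -2.19 ± 0.21 and -1.94 ± 0.20. Usp1, which removes ubiquitin from PCNA and FANCD2, changed by -2.24 ± 0.14 and -2.11 ± 0.14. Brip1, a helicase that binds BRCA1, had -1.89 ± 0.18 and -2.15 ± 0.22. The 8 genes together had medians of -2.18 and -2.09.

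Of the genes for chromatin and histone supply, Cdca7 (ENSMUSG00000055612, chr2:72476159-72486893 in GRCm38), which activates the chromatin remodeller encoded by Hells, fell most in Ypel4+/+. It was at 12.8, 15.3, 14.8 and 11.8 CPM in Ypel4+/+ Poly-E and 2.53, 3.43, 1.67 and 2.10 CPM in Ypel4+/+ Ortho-E. Cdca7 in Ypel4-/- was at 12.8, 14.4, 14.5 and 10.9 CPM in Poly-E and 4.05, 1.85, 2.63 and 3.47 CPM in Ortho-E. The populations were clearly apart, while the genotypes overlapped in both populations. The log2 fold changes were -2.52 ± 0.27 (edgeR adjusted p = 5.20e-09) and -1.94 ± 0.25 (edgeR adjusted p = 2.89e-08), which in these separate fits differed most between genotypes of the list, by 0.58, with Ortho-E values that rested on 5 to 9 and 5 to 18 counts per library.

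Nasp (ENSMUSG00000028693, chr4:116601052-116627941 in GRCm38), a chaperone of free histones, had the smallest fall of this role in Ypel4+/+. It was at 91.1, 89.4, 89.7 and 74.5 CPM in Ypel4+/+ Poly-E and 27.9, 22.8, 23.7 and 28.7 CPM in Ypel4+/+ Ortho-E. Nasp in Ypel4-/- was at 88.8, 95.2, 111 and 83.9 CPM in Poly-E and 18.9, 20.8, 26.6 and 27.8 CPM in Ortho-E. Replicate 4 was the lowest Poly-E library in both genotypes and yet the highest Ortho-E library in both, so that its own change was the smallest. Over all replicates Nasp changed by -1.69 ± 0.14 (edgeR adjusted p = 5.21e-11) and -1.83 ± 0.14 (edgeR adjusted p = 5.32e-13).

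Slbp, which binds the stem-loop of replication-dependent histone messages, changed by -1.87 ± 0.12 in Ypel4+/+ and -1.77 ± 0.12 in Ypel4-/-, and Casp8ap2, needed for the processing of the same messages, by -1.83 ± 0.16 and -1.68 ± 0.14. Chaf1b, a subunit of the chromatin assembly factor that deposits new histones at the fork, changed by -2.25 ± 0.19 and -1.99 ± 0.16. Uhrf1, which recognises hemimethylated DNA and brings in the maintenance methyltransferase, changed by -2.11 ± 0.13 and -2.04 ± 0.12, and Hells by -1.70 ± 0.20 and -1.92 ± 0.18. Atad2, a bromodomain ATPase of chromatin, changed by -2.05 ± 0.12 and -2.03 ± 0.13. Wdr76 had -2.04 ± 0.20 and -1.80 ± 0.16, and Ubr7 -2.16 ± 0.19 and -1.99 ± 0.18. The role's 10 genes had medians of -2.05 and -1.93.

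The remaining role held 2 regulators of the cycle. E2f8 (ENSMUSG00000046179, chr7:48866429-48881596 in GRCm38) encodes an atypical E2F that represses E2F targets late in S phase. It was at 507, 582, 613 and 610.0 CPM in Ypel4+/+ Poly-E and 108, 112, 113 and 147 CPM in Ypel4+/+ Ortho-E. E2f8 in Ypel4-/- was at 513, 504, 579 and 619 CPM in Poly-E and 94.9, 84.2, 106 and 140.5 CPM in Ortho-E. In all 4 groups replicates 3 and 4 lay above replicates 1 and 2, a split that it shared with Cdc6 among the members and that 3.87% of all genes showed in 1 direction or the other. E2f8 changed by -2.23 ± 0.13 (edgeR adjusted p = 5.39e-14) and -2.22 ± 0.14 (edgeR adjusted p = 7.35e-16).

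Ccne2 (ENSMUSG00000028212, chr4:11191351-11204779 in GRCm38) encodes a cyclin E, the partner of Cdk2 at the entry to S phase. It was at 411, 492, 336 and 349 CPM in Ypel4+/+ Poly-E and 89.6, 127, 92.6 and 113 CPM in Ypel4+/+ Ortho-E. Ccne2 in Ypel4-/- was at 379, 425, 362 and 363 CPM in Poly-E and 119, 82.0, 80.9 and 107 CPM in Ortho-E. Replicate 2 was the highest Poly-E library of both genotypes, and no Ortho-E library reached any Poly-E library. Its log2 fold changes were -1.88 ± 0.14 (edgeR adjusted p = 9.88e-12) and -1.81 ± 0.13 (edgeR adjusted p = 7.57e-14). Ints8 on the other strand covers 17.4% of the exonic bases of Ccne2.

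The order of the members by fall was much alike in the 2 genotypes, whose population comparisons share no library. Across the 40 genes, which are not independent replicates and were measured in the same libraries, the log2 fold changes in Ypel4+/+ and Ypel4-/- had Pearson's r of 0.78 and Spearman's rho of 0.77. The estimated fall was smaller in Ypel4-/- for 31 of 40 members when each genotype was fitted and scaled on its own, with a median difference of 0.10, which is also the amount by which the median of all genes differed between the genotypes (-0.19 against -0.09). In 1 fit over the 16 libraries the count turned, with a smaller fall in Ypel4-/- for 17 members and a larger one for 23, so that no direction of a genotype difference is drawn from it.

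**Figure D3:**
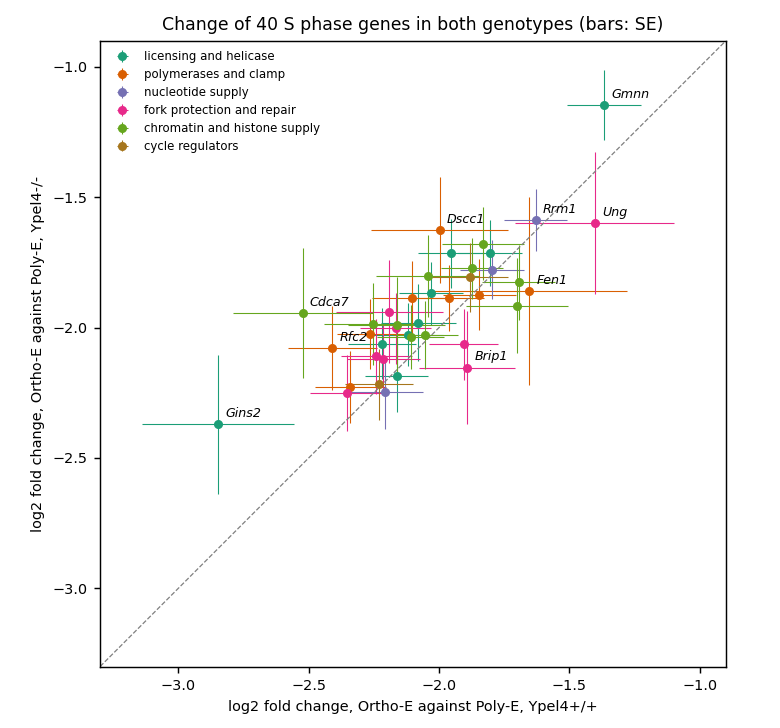
Log2 fold change of Ortho-E against Poly-E for the 40 S phase genes in Ypel4+/+ (x axis) and Ypel4-/- (y axis), coloured by role, with bars of 1 SE and a dashed line of equal change. All points lie below 0 on both axes, from Gins2 at -2.85 and -2.37 to Gmnn at -1.37 and -1.15.

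Levels per kilobase of exon spread far more widely than the changes did. In Ypel4+/+ Poly-E, Rrm2 stood first at 694 ± 70.1 CPM per kilobase (SD, n = 4), followed by Pcna at 347 ± 48.2, Rrm1 at 158 ± 7.32 and Uhrf1 at 128 ± 9.28, and the lowest were Exo1 at 3.46 ± 0.456, Gins2 at 3.17 ± 0.499 and Ung at 1.67 ± 0.539. Of the 39 pairs of neighbours in this order 26 lay within 1 SD of each other, and Rrm2, Pcna and Rrm1 were each separated from the next by more than that. In Ypel4+/+ Ortho-E the order began with Rrm2 at 196 ± 15.9, Pcna at 86.7 ± 12.5 and Rrm1 at 49.7 ± 4.87, and Gmnn at 38.9 ± 7.75 took the fourth place. The same 4 genes led in Ypel4-/- Ortho-E, Rrm2 at 180.1 ± 14.7 and Gmnn at 39.9 ± 7.20. Where exons overlap another gene, as in Fen1 and Gins2 and over fewer bases in Ccne2 and Rfc2, the level per kilobase is uncertain.

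Other genes of the same processes were read from 3 lists. Of 46 other replication genes, 42 were called lower in each genotype, beside 32.1% and 31.5% of all genes tested. Their medians were -1.99 in Ypel4+/+ and -1.90 in Ypel4-/-. The remaining subunits of the MCM ring moved with the members, Mcm3 by -2.22 ± 0.13 and -2.02 ± 0.14 and Mcm7 by -2.10 ± 0.13 and -1.91 ± 0.14. Ticrr, which fires licensed origins, fell most at -2.76 ± 0.18 and -2.56 ± 0.16. Over all genes 26.4% were called higher in Ypel4+/+ and 29.5% in Ypel4-/-. Orc3, a subunit of the origin recognition complex, was called higher with TMM scaling at 1.30 ± 0.14 and 1.38 ± 0.14, whereas with library totals its change was 0.01 and -0.04 and was not called. Orc4 of the same complex was called higher in Ypel4-/- only, at 0.67 ± 0.15 beside 0.32 ± 0.16 in Ypel4+/+ (edgeR adjusted p = 0.0766). With library totals it was called lower in both, at -0.75 in Ypel4-/- and -0.95 in Ypel4+/+. The difference between genotypes for Orc4 was not itself called.

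Among 16 genes of the E2F and pocket protein families and their partners, 11 were called lower and 3 higher in each genotype, 15 being tested in Ypel4+/+. Of all genes tested, 32.1% were called lower and 26.4% higher in Ypel4+/+, and 31.5% and 29.5% in Ypel4-/-. Rbl1, which encodes the pocket protein p107, fell most, at -2.20 ± 0.14 in Ypel4+/+ and -2.38 ± 0.14 in Ypel4-/-, and E2f1 changed by -1.97 ± 0.17 and -1.81 ± 0.16. The 3 called higher were Tfdp2, a dimerisation partner of E2F proteins, at 2.77 ± 0.17 and 2.99 ± 0.12, Rbl2, which encodes p130, at 1.47 ± 0.18 and 1.75 ± 0.16, and E2f2 at 1.41 ± 0.12 and 1.65 ± 0.11. With library totals Tfdp2 was still called higher in both genotypes, at 1.4997 and 1.57, and E2f2 in Ypel4-/- only, at 0.24 beside 0.13 in Ypel4+/+, whereas Rbl2 was called in neither, at 0.19 and 0.34. E2f4 was not called with TMM scaling, at -0.09 ± 0.12 and 0.08 ± 0.12. With library totals 12 genes of the list were called lower in each genotype, E2f4 among them in Ypel4+/+ at -1.38. No gene of the list was called in a genotype comparison or in the interaction, so no genotype difference is drawn from it.

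The G2 and M phase genes gave a wider picture. Of 52, 46 were called lower in each genotype and 3 higher, where 32.1% and 31.5% of all genes were called lower and 26.4% and 29.5% higher. The medians were -1.53 and -1.48, and the SD over genes was 0.89 and 0.90, beside 0.29 and 0.23 for the S phase genes. Ttk fell most in Ypel4+/+ at -2.82 ± 0.21 and Aurkb in Ypel4-/- at -2.64 ± 0.16. G2e3 at 1.38 ± 0.13 and 1.57 ± 0.13, Cenpe at 1.01 ± 0.12 and 1.10 ± 0.12 and Nusap1 at 0.43 ± 0.12 and 0.50 ± 0.12 were called higher with TMM scaling, but with library totals Cenpe and Nusap1 were called lower in both genotypes and G2e3 was called in neither, at 0.09 and 0.15. The summed level of the S phase genes was 0.375 ± 0.0209 of that of the G2 and M phase genes in Ypel4+/+ Poly-E and 0.176 ± 0.0150 in Ypel4+/+ Ortho-E (SD, n = 4), and 0.400 ± 0.0394 and 0.181 ± 0.0162 in Ypel4-/-. This ratio needs no scaling between libraries, and the Poly-E and Ortho-E libraries did not overlap in it in either genotype. As a ratio of sums it is weighted towards abundant genes and need not follow the medians of the lists. Rrm2 alone made up 18.4% of the members' counts in Ypel4+/+ Poly-E and 20.9% in Ypel4+/+ Ortho-E.

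**Figure D4:**
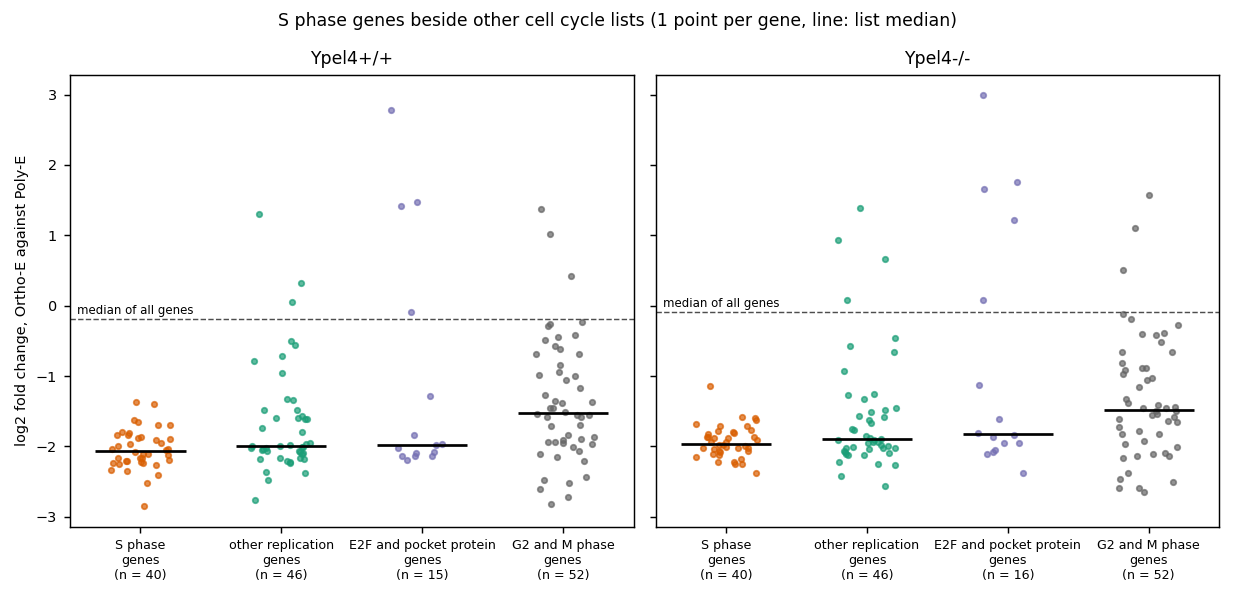
Log2 fold change of Ortho-E against Poly-E in Ypel4+/+ (left) and Ypel4-/- (right) for the 40 S phase genes, 46 other replication genes, 15 or 16 E2F and pocket protein genes and 52 G2 and M phase genes, with 1 point per gene, a solid line at each list's median and a dashed line at the median of all genes. The S phase genes form 1 band around -2.07 and -1.96, while each of the other lists has genes at or above the dashed line.

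Among the members with a promoter window, those with and without an E2F word changed alike, with median log2 fold changes of -2.11 over 12 genes and -2.003 over 18 genes in Ypel4+/+ and of -1.93 and -1.93 in Ypel4-/-. In Ypel4+/+, the members with a word ran from Cdca7 at -2.52 ± 0.27 to Hells at -1.70 ± 0.20, with Mcm6 and its 3 upstream words at -2.03 ± 0.12. Those without a word ran from Rad51ap1 at -2.35 ± 0.14 to Ung at -1.40 ± 0.30. The part of E2F in these changes was not tested.

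To determine whether loss of Ypel4 moved these genes, Ypel4-/- and Ypel4+/+ libraries were compared within each population. In Poly-E, 0 of 40 members were called by edgeR, where 0.00807% of 12395 genes were, and 0 of 40 had an unadjusted p under 0.05, as 2.19% of all genes did. The members' log2 fold changes ran from -0.07 for Tyms to 0.20 for Dscc1 with a median of 0.04. In Ortho-E again 0 of 40 members were called, beside 0.0285% of 10521 genes, and 0 of 40 had an unadjusted p under 0.05, beside 3.68%. There the changes ran from -0.45 for Brip1 to 0.49 for Dscc1 with a median of 0.01. DESeq2 called 0 of 40 members in either population too. No member had all 4 Ypel4-/- libraries on 1 side of all 4 Ypel4+/+ libraries in either population, a pattern that in Poly-E 0.803% of genes had with Ypel4-/- lower and 1.28% with it higher, and in Ortho-E 0.931% and 1.22%.

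The members with the largest differences were expressed at low levels in Ortho-E. Dscc1 was at 1.69, 2.86, 4.00 and 6.30 CPM in Ypel4+/+ Ortho-E and 5.85, 5.56, 5.92 and 5.21 CPM in Ypel4-/- Ortho-E. The Ypel4-/- libraries were tight and lay within the range of the Ypel4+/+ libraries, which spread widely. Brip1 was at 7.60, 9.14, 7.66 and 9.80 CPM in Ypel4+/+ Ortho-E and 4.95, 2.60, 5.26 and 10.4 CPM in Ypel4-/- Ortho-E. Here 3 Ypel4-/- libraries were below all Ypel4+/+ libraries, and replicate 4 was above them. The differences were 0.49 (95% interval -0.19 to 1.18) for Dscc1 with an unadjusted p of 0.152 in edgeR, and -0.45 (95% interval -1.06 to 0.15) for Brip1 with 0.136. Gins2, with the libraries listed further up, lay between them in size at 0.48 (95% interval -0.52 to 1.49, unadjusted edgeR p of 0.331).

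The intervals, which are approximate, show which differences the data could have held. In Poly-E, the 95% interval lay within 1.5-fold in either direction for 39 of 40 members, and only that of Fen1, 0.01 (95% interval -1.02 to 1.03), was wider. In Ortho-E, 29 of 40 intervals lay within 1.5-fold and 35 within 2-fold, and those of Gins2, Dscc1, Brip1, Ung and Cdca7 reached beyond 2-fold on at least 1 side. Among well expressed members, the Ortho-E interval of Rrm2 was -0.10 (95% interval -0.30 to 0.10), that of Pcna 0.01 (95% interval -0.23 to 0.24) and that of Slbp 0.00 (95% interval -0.23 to 0.23).

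**Figure D5:**
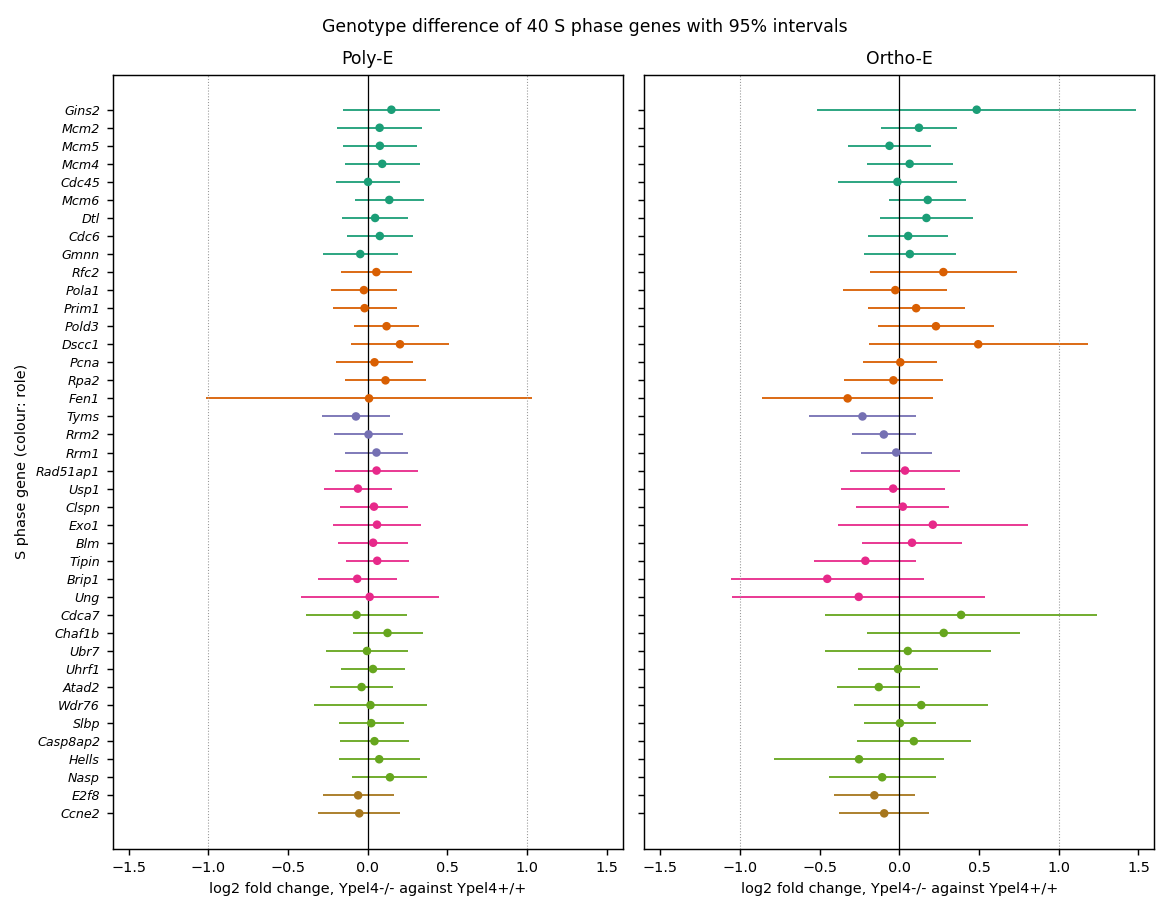
Log2 fold change of Ypel4-/- against Ypel4+/+ in Poly-E (left) and Ortho-E (right) for each S phase gene, with its 95% interval and colours by role; dotted lines mark a 2-fold difference either way. Every interval crosses 0, and the widest are those of Fen1 in Poly-E and of Gins2 in Ortho-E.

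A test of the difference itself, the interaction of genotype and population over all 16 libraries, called 0 of 40 members and 0 of 13318 genes (0%) in edgeR, where DESeq2 called 1 gene that was no member. Unadjusted p was under 0.05 for 0 of 40 members and for 364 genes (2.73%). Interaction terms ran from -0.37 ± 0.31 for Brip1 to 0.46 ± 0.40 for Cdca7, and the median was -0.03. Their 95% intervals lay within 2-fold for 36 of 40 members, all but Gins2, Fen1, Ung and Cdca7.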

How the data were processed

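Libraries were made with the TruSeq RNA v2 kit and sequenced by the authors, who used an nf-core pipeline with the GRCm38 mouse genome. The deposited files hold raw read counts per gene from featureCounts version 1.6.4, one file per library, with exon coordinates. How reads on overlapping genes were assigned was not given in the sources used here.

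From these counts, TMM factors and CPM were computed in edgeR 4.0.16 (R 4.3.3) over genes with at least 10 counts in total, and each of 4 pairs of groups was fitted with the robust quasi-likelihood test on its own 8 libraries, with the interaction fitted on all 16. P-values were Benjamini-Hochberg adjusted over all genes tested, with a threshold of 0.05. Values are mean ± SD over 4 libraries, or log2 fold change ± SE. DESeq2 1.42.0, other scalings, filters and left-out libraries were alternatives. The fits were also run on simulated counts in which a small share of genes was changed, in both directions. Such counts do not test the fits under a shift as broad as that between the populations.

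Titles number both populations of a genotype from 1 to 4, and the deposited library names give the populations of a number a shared further number, which may mark the mouse. Over 5279 genes, same-numbered deviations from the group means correlated at 0.412 to 0.604 in Ypel4+/+ and 0.0817 to 0.511 in Ypel4-/-. Differently numbered ones reached at most 0.388 and 0.263, and all 4 Ortho-E libraries of each genotype matched best with their own number. Between genotypes, whose mice differ, same-numbered deviations correlated at 0.228 to 0.636 in Poly-E and -0.0971 to 0.306 in Ortho-E. There differently numbered ones reached 0.592 and 0.265, and 2 of 4 Ypel4-/- libraries in each population matched best with their own number. The number is thus not shown to mark the mouse alone.

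All 40 members could be named. Per-library values are given for the lowest and highest fold change in each role, for the highest and lowest level per kilobase, and for the widest genotype differences; of the other lists, the extremes and any gene called against the list's direction are given, and further genes were named after their values were seen. The members and lists were chosen with earlier results of these data known.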

Additional observations from a re-analysis of the deposited data

Results flagged for a closer look

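In 10 of 160 checks of 1 member in 1 group of 4 libraries, 1 library stood apart from the other 3 by more than Dixon's 95% limit, and chance alone gives about 1 in 20. In Ypel4+/+ Poly-E these were Gmnn at 123 CPM in replicate 1 (others 158 to 161), Brip1 at 39.5 CPM in replicate 2 (others 30.4 to 31.2), Uhrf1 at 603 CPM in replicate 3 (others 521 to 528) and Nasp at 74.5 CPM in replicate 4 (others 89.4 to 91.1). In Ypel4+/+ Ortho-E, Chaf1b was at 6.76 CPM in replicate 1 (others 15.99 to 17.7), Prim1 at 32.3 CPM in replicate 3 (others 38.9 to 40.1) and E2f8 at 147 CPM in replicate 4 (others 108 to 113). In Ypel4-/- Poly-E, replicate 2 was low for Usp1 at 182 CPM (others 214 to 219) and high for Chaf1b at 86.1 CPM (others 73.7 to 75.5). In Ypel4-/- Ortho-E, Cdc6 was at 91.5 CPM in replicate 4 (others 68.6 to 70.4). No library held more than 2 of the 10 values, and none of them brought an Ortho-E library up to a Poly-E library of the same genotype.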

How the results depend on the processing

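The number of members called, 40, 40, 0, 0 and 0 in the 5 comparisons, was the same under every alternative run: DESeq2, its size factors in edgeR, library totals without TMM, no filter or filterByExpr, 1 fit over all 16 libraries (not for the interaction), globin genes left out, a replicate block, and each library left out in turn. With library totals the median log2 fold change of the members moved to -3.35 in Ypel4+/+ and -3.38 in Ypel4-/- and that of the genotypes in Poly-E to 0.092. With filterByExpr it was -1.89 in Ypel4+/+. Leaving out 1 library gave medians of -2.12 to -1.93 and -2.09 to -1.89 for the populations, 0.01 to 0.06 and -0.04 to 0.05 for the genotypes in Poly-E and Ortho-E, and -0.12 to 0.08 for the interaction, so that the sign of the last 2 depended on the libraries used. The replicate block changed no call, with medians of -2.07, -1.96, 0.04, 0.02 and -0.03. A term for replicates 1 and 2 against 3 and 4, added after the split of Fen1 was seen, left every member's call as it was. For single members, 1476 alternative values were computed, for all 40 in both population comparisons and for Dscc1, Brip1, Tyms or Cdca7 alone in the genotype comparisons and the interaction, and none of these changed sign or call. Over all genes, the genotype calls varied from 1 to 4 in Poly-E, from 3 to 15 in Ortho-E and from 0 to 1 for the interaction. Depth limits the precision for Gins2, Ung and Cdca7, with 3 to 19 counts in each Ortho-E library. It also does so for Dscc1, with as few as 4 counts in a Ypel4+/+ Ortho-E library, and Brip1, with as few as 7 in a Ypel4-/- one.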
